A study of Drosophila melanogaster with 12 samples.

Results

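The phototransduction cascade below rhodopsin was followed in RNA from adult heads of Drosophila melanogaster. The genes were chosen by name, from a list of 10: norpA, trp, trpl, inaC, inaD, ninaC, Arr1, Arr2, rdgA and Calx. Of these, 8 had a probe set annotated to them alone, and they held 10 of the 13966 probe sets tested (8 of 10844 named genes). The genes norpA and ninaC were not analysed here. The arrays compared 1 day in constant darkness (CT4 to CT24 in circadian time, 6 arrays) with the light/dark day before it (6 arrays, ZT4 to ZT24, Zeitgeber time, where lights come on at 0), with 1 sample every 4 hours. All flies were of the strain cn bw and had been kept in 12-hour light and 12-hour dark cycles beforehand. The cinnabar and brown mutations remove the brown and the red screening pigments of the eye, so both days were measured in eyes without them. Each array held RNA of pooled heads, and sex and age are not given in the labels. Constant darkness was the later day, so lighting and elapsed time cannot be told apart. In heads, fewer photoreceptors and less RNA per photoreceptor cannot be told apart either.

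In fly photoreceptors, light-activated rhodopsin acts through a G protein on a phospholipase C encoded by norpA. Breakdown of the membrane lipid PIP2 opens the cation channels TRP and TRPL, and calcium that enters both amplifies and ends the response. The scaffold INAD holds the phospholipase, the TRP channel and the eye protein kinase C (INAC) together, arrestins switch rhodopsin off, diacylglycerol kinase (RDGA) removes a lipid product, and the exchanger CALX pumps calcium out. The tissue carried eye transcripts: the photoreceptor cell-surface protein gene chp averaged 8.95 and the corneal lens protein gene retinin 11.4 over the 12 arrays, at percentiles 98.05 and 99.9 of all tested probe sets. They were the brightest of the 11 genes listed for photoreceptor identity and structure. The others ran from percentile 22.6 (gl) to 94.55 (ey). Levels here and below are RMA values on the log2 scale, and since the brightness of a probe set also depends on its probes, genes are not ranked against each other.

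In the light/dark day, 5 of the 8 genes took a similar course. The transcripts of trp, inaC, inaD, Arr1 and Arr2 were low around the light-to-dark change, at ZT12 and ZT16, and higher at the same hours in constant darkness. The channel gene trpl was also lowest at ZT16 but highest at ZT8, the kinase gene rdgA was nearly flat, and the exchanger gene Calx followed another course with a low at CT8. None of these courses passed a test over all probe sets: for the mean level of the days, for the daily rhythm and for the difference of the rhythm, 0 of the 8 genes had an adjusted p under 0.05 in limma. Over all tested probe sets, 0% were called for the mean level, and 0.00716% (1 probe set) for each of the other tests. There was 1 array per time point, so these tests take their error from the scatter of the arrays around fitted curves.

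**Figure D1:**
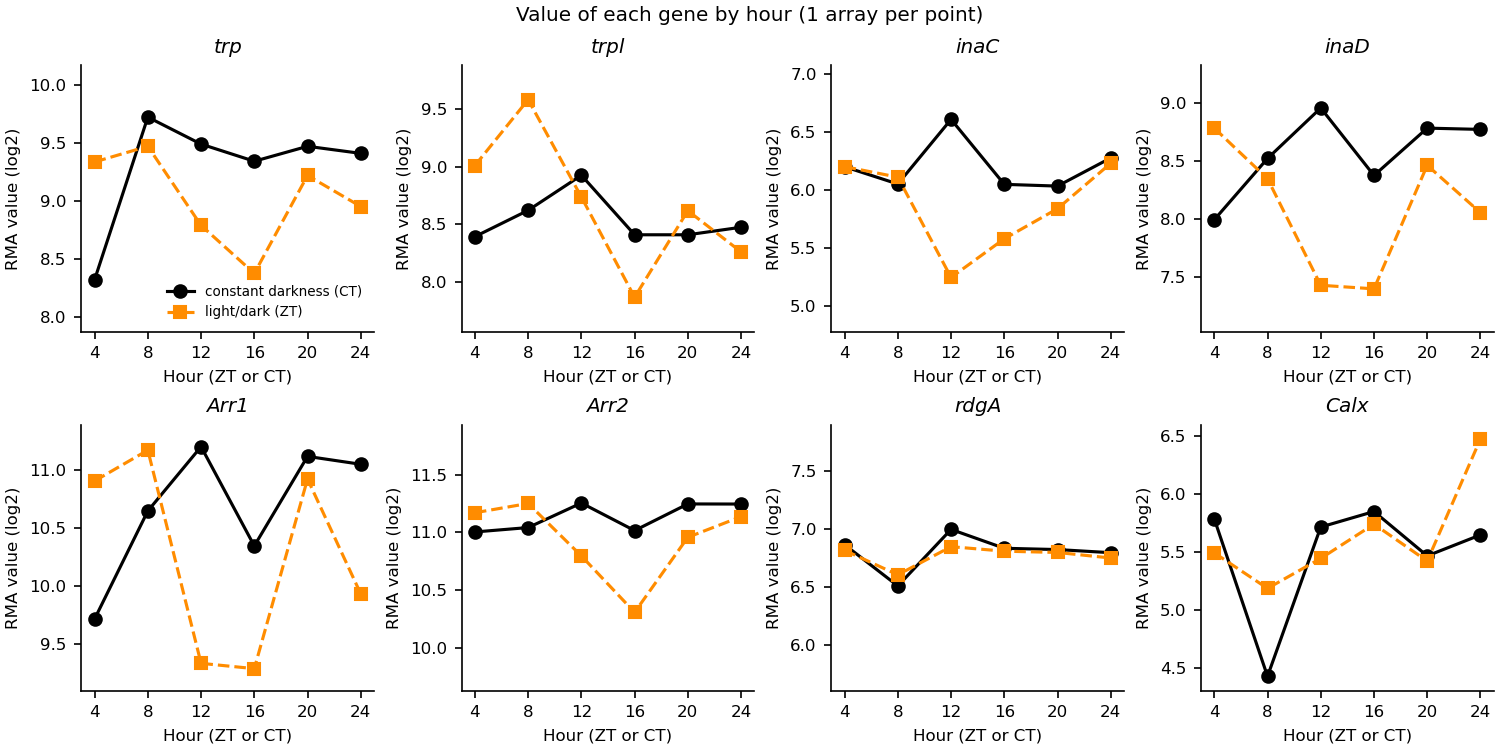
RMA values (log2, vertical axis) of the 8 genes at each hour (horizontal axis), with 1 array per point; black circles are constant darkness (CT) and orange squares light/dark (ZT), and every panel spans the same log2 range. The inaD, Arr1 and inaC lines part most at hour 12, where Arr1 was at 11.20 at CT12 and 9.33 at ZT12, while the lines of rdgA stay close.

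Arr1 and Arr2 encode the visual arrestins, which bind activated rhodopsin and end its signal. Arr1 stood at 9.71, 10.65, 11.20, 10.34, 11.12 and 11.05 at CT4 to CT24, against 10.91, 11.17, 9.33, 9.28, 10.92 and 9.93 at ZT4 to ZT24. Its low arrays were ZT12, ZT16, CT4 and ZT24, and the days overlapped. The mean was 10.68 ± 0.57 in constant darkness and 10.26 ± 0.85 in light/dark (SD, n = 6 each), a difference of 0.42 ± 0.39 (SE; 95% interval -0.43 to 1.28; adjusted p = 0.93), which was 0.22 without ZT16 and 0.71 without CT4. With quantile normalization again the Arr1 difference was 0.27 ± 0.30. The other arrestin gene moved less. Arr2 stood at 11.004, 11.04, 11.25, 11.02, 11.25 and 11.24 at CT4 to CT24, against 11.17, 11.25, 10.80, 10.31, 10.96 and 11.14 at ZT4 to ZT24. In constant darkness its values spanned only 0.25, against 0.94 in light/dark, where ZT16 was lowest. The difference of the means for Arr2 was 0.20 ± 0.13 (95% interval -0.09 to 0.48; adjusted p = 0.93), 0.085 without ZT16 and 0.01 with quantile normalization again.

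The channel genes trp and trpl encode subunits of the light-gated cation channels, of which TRP is held in the INAD complex and TRPL is known to leave the light-sensing membrane in light. For trp, the values were 8.32, 9.72, 9.49, 9.34, 9.47 and 9.41 at CT4 to CT24, against 9.34, 9.47, 8.79, 8.37, 9.22 and 8.95 at ZT4 to ZT24. CT4 and ZT16 were its lowest arrays and CT8 its highest. Its day difference was 0.27 ± 0.25 (95% interval -0.28 to 0.82; adjusted p = 0.93), 0.52 without CT4, 0.12 without ZT16 and 0.09 with quantile normalization again. For trpl, the values were 8.39, 8.62, 8.92, 8.41, 8.41 and 8.48 at CT4 to CT24, against 9.01, 9.58, 8.74, 7.87, 8.62 and 8.26 at ZT4 to ZT24. The light/dark day held both its highest value, at ZT8, and its lowest, at ZT16, a range of 1.71 or 3.26-fold, whereas constant darkness spanned 0.53. The trpl mean was 8.54 ± 0.21 in constant darkness and 8.68 ± 0.59 in light/dark (SD, n = 6 each), a difference of -0.14 ± 0.19 (95% interval -0.56 to 0.28; adjusted p = 0.93). Without ZT12 and ZT16 it was -0.42 ± 0.16, without ZT8 -0.01, without ZT16 -0.29, and with quantile normalization again -0.27 ± 0.15.

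The next pair of members belongs to the signalling complex around the channel. The scaffold gene inaD stood at 7.99, 8.52, 8.96, 8.38, 8.78 and 8.77 at CT4 to CT24, against 8.78, 8.35, 7.43, 7.40, 8.46 and 8.05 at ZT4 to ZT24. Its lowest arrays were ZT16 and ZT12, and it was higher in constant darkness at 5 of the 6 hours. The mean was 8.57 ± 0.35 in constant darkness and 8.08 ± 0.57 in light/dark (SD, n = 6 each), a difference of 0.49 ± 0.25 (95% interval -0.05 to 1.03; adjusted p = 0.93). With all arrays this was the largest day difference of the 8 genes, but it was 0.10 ± 0.21 without ZT12 and ZT16, where that of trpl was larger in size, and without CT4 the Arr1 difference (0.71) exceeded that of inaD (0.68). With quantile normalization again the inaD difference was 0.37 ± 0.19. The protein kinase C gene inaC stood at 6.20, 6.05, 6.61, 6.05, 6.03 and 6.28 at CT4 to CT24, against 6.20, 6.11, 5.24, 5.58, 5.84 and 6.23 at ZT4 to ZT24. At hours 4 and 8 its days differed by -0.001 and -0.06, and the days parted at hour 12, by 1.36. The inaC difference of 0.34 ± 0.16 had a 95% interval of -0.01 to 0.68 (adjusted p = 0.93), was 0.20 without CT12 and 0.11 ± 0.14 without ZT12 and ZT16, and came to 0.59 ± 0.20 without ZT16, ZT24, CT4 and CT8.

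Lipid and calcium clearance behaved otherwise. The diacylglycerol kinase gene rdgA had 3 probe sets, with 12-array means of 6.78, 6.63 and 6.19, and their ranges over all arrays were 0.49, 0.31 and 0.82. The brightest stood at 6.86, 6.51, 6.99, 6.83, 6.82 and 6.79 at CT4 to CT24, against 6.81, 6.60, 6.84, 6.81, 6.79 and 6.75 at ZT4 to ZT24, with its lowest array at CT8. The day differences of the 3 probe sets were 0.03 ± 0.08, 0.02 ± 0.07 and 0.11 ± 0.11 (SE; adjusted p = 0.96, 0.97 and 0.93). They did not share 1 course: the brightest was highest at CT12, the next at CT4 and the dimmest at CT16. The sodium/calcium exchanger gene Calx stood at 5.78, 4.42, 5.71, 5.85, 5.46 and 5.65 at CT4 to CT24, against 5.49, 5.18, 5.44, 5.74, 5.42 and 6.47 at ZT4 to ZT24. CT8 was far below and ZT24 far above the rest, a range of 2.05 or 4.14-fold, the widest of the 8 genes. The mean of Calx was 5.48 ± 0.53 in constant darkness and 5.63 ± 0.45 in light/dark (SD, n = 6 each), a difference of -0.14 ± 0.24 (95% interval -0.66 to 0.37; adjusted p = 0.94). It was 0.04 without CT8, 0.01 without ZT24 and 0.26 ± 0.12 without ZT16, ZT24, CT4 and CT8, so its direction rests on these arrays.

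Most members varied widely between arrays. A range of at least 1 over the 12 arrays was seen in 6 of the 8 genes (all but Arr2 and rdgA), against 13.0% of the tested probe sets. Such ranges were not particular to the cascade. They were seen in 8 of 10 muscle, 6 of 9 neuron, 5 of 9 fat body and 5 of 13 gut markers. Among genes of photoreceptor identity and structure, 2 of 11 had them. The lows clustered: ZT16 was among the 2 lowest arrays for 6 of the 8 genes (16.7% of all probe sets) and ZT12 for 4 (12.8%), namely inaC, inaD, Arr1 and Arr2. CT8 was among the 2 lowest for rdgA and Calx (21.9% of all probe sets). The median deviation of the 8 genes from their own means was 0.32 at CT12, the highest array, in which all 8 genes lay above their means (59.4% of all probe sets lay below theirs), against -0.73 at ZT16 and -0.30 at ZT12. With quantile normalization again it was 0.15 at CT12, no longer the highest (0.17 at ZT8 and 0.16 at ZT4), -0.48 at ZT16 and -0.12 at ZT12.

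**Figure D2:**
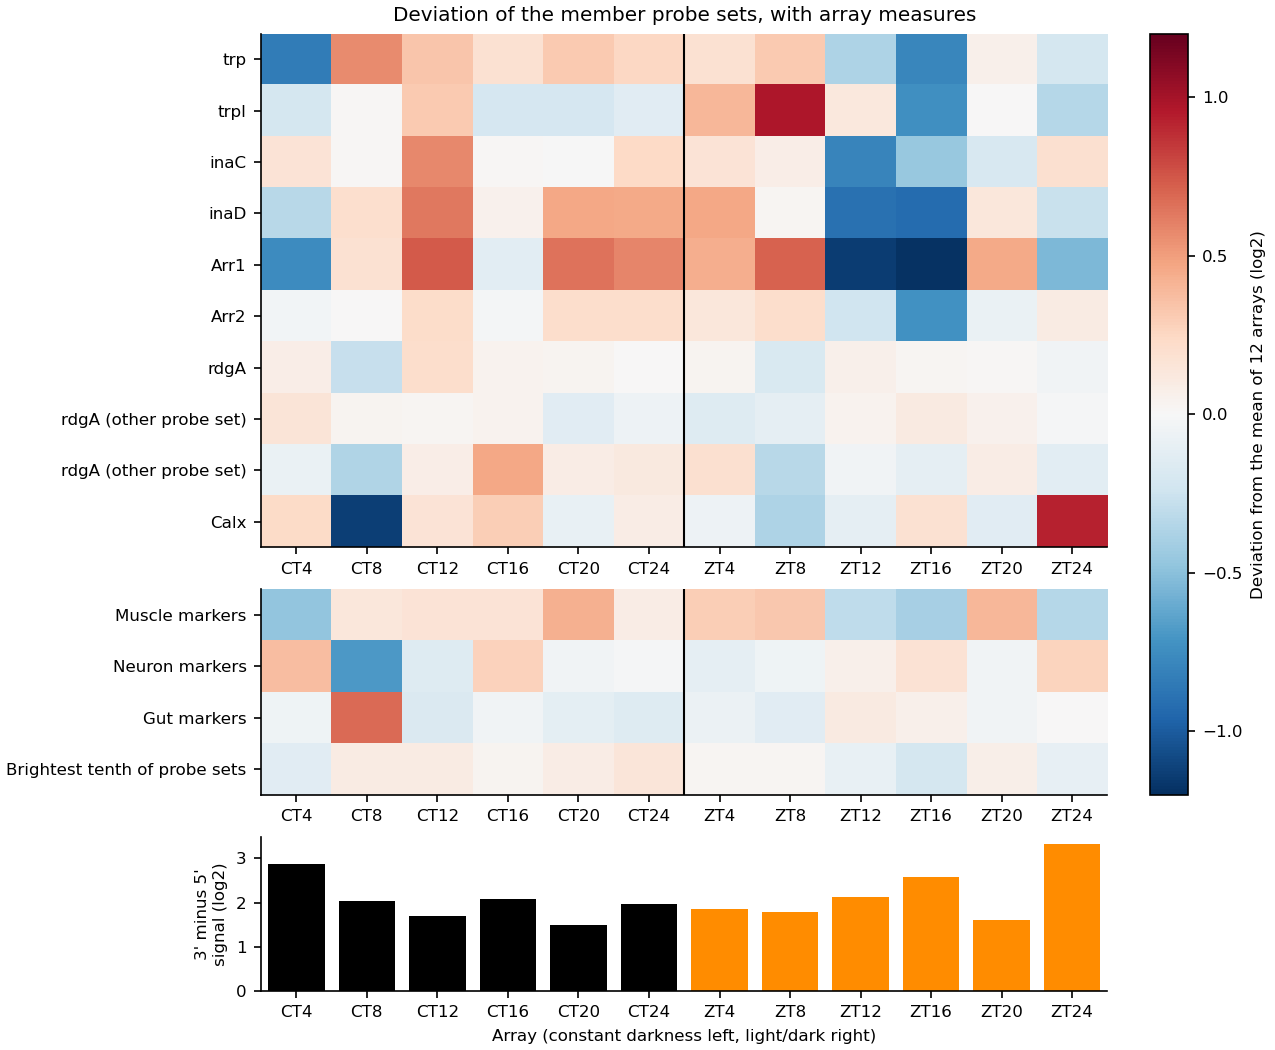
Deviation of each of the 10 probe sets from its mean over 12 arrays (log2, colour) by array, with constant darkness left of the line and light/dark right of it; below are the median deviations of 3 marker lists and of the brightest probe sets, and bars of the 3' minus 5' signal of controls. ZT16 and ZT12 are blue for inaC, inaD, Arr1 and Arr2, where muscle markers are also low, and CT8 is blue for Calx, where neuron markers are low and gut markers high.

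Array measures also differed between the arrays, and not all of them followed these lows. The excess of 3' over 5' signal for the controls actin, eIF-4a and GAPDH, which grows as RNA is degraded or copied incompletely, was 2.88 at CT4, 3.32 at ZT24 and 2.58 at ZT16, against 1.49 to 2.13 in the other 9 arrays. Those 9 include the low arrays ZT12 (2.13) and CT8 (2.02). Of 10 measured muscle markers (13 listed), 8 lay below their mean at CT4, 9 at ZT12, 7 at ZT16 and 6 at ZT24, and their summed linear level ran from 3964 to 8839 in constant darkness and from 4596 to 8667 in light/dark. Of 9 measured fat body markers (10 listed), 7 lay below their mean at CT4, 8 at ZT12, 6 at ZT16 and 5 at ZT24, with sums of 21287 to 30621 in constant darkness and 16539 to 28805 in light/dark, lowest at ZT16. At CT8, where Calx was lowest, 8 of 9 measured neuron markers (10 listed) lay below their mean, with sums of 447 to 818 in constant darkness and 633 to 726 in light/dark. Gut markers (13 of 14 measured) had their highest sum at CT8, with 1612 to 2637 in constant darkness and 1774 to 2061 in light/dark, and 11 of the 13 lay above their mean there. Genes listed for photoreceptor identity and structure (11 of 11 measured), among them the corneal lens gene retinin, were also summed. Their sums were 3682 to 4168 in constant darkness and 3093 to 4062 in light/dark, lowest at ZT16. The sum is weighted to bright genes, most of all retinin (mean 11.4, against 8.95 for chp), which was itself lowest at ZT16. It therefore mainly follows this lens gene. By count 4 of the 11 lay below their mean at ZT16 and 2 at ZT12, with median deviations of 0.05 and 0.06. The count gives dim genes such as gl (mean 3.58) and eya (4.07) the same weight as bright ones. The 2 below at ZT12 were chp and retinin. With a mean of 8.95, chp was at 8.12 at ZT12, 8.40 at ZT16 and 8.42 at CT4, its lowest arrays. No marker was listed at 0. The 1397 probe sets of the highest mean level had a median deviation of -0.14 at CT4, -0.21 at ZT16, -0.10 at ZT24 and -0.08 at ZT12, and of 0.03 to 0.14 in the other 8 arrays. The deposited values also spread less in the same arrays. The SD over all tested probe sets was 1.57 at CT4, 1.55 at ZT16, 1.58 at ZT24 and 1.56 at ZT12. In the other 8 arrays it was 1.63 to 1.68. The part of these array measures in the members' courses was not tested, except for the fits with quantile normalization and with the 3' minus 5' signal given below.

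Set against each other hour by hour, the days differed in opposite directions through the day. At hour 12 all 8 genes were higher in constant darkness (7 of 8 with quantile normalization again), against 38.6% of all probe sets, and 4 of them by at least 0.5 (Arr1 1.87, inaD 1.53, inaC 1.36 and trp 0.70), against 8.99%. At hour 16 all 8 were again higher (7 of 8 with quantile normalization again), against 42.1% of all probe sets, and 5 of them by at least 0.5 (Arr1 1.06, inaD 0.98, trp 0.97, Arr2 0.71 and trpl 0.54), against 5.57%. For rdgA these counts use the brightest probe set. The next by level was lower at hours 12 and 16 (-0.02 and -0.059), and the dimmest higher (0.127 and 0.569). With quantile normalization again, some of these differences fell below 0.5. At CT16 and ZT16, Arr2 was then at 10.96 and 10.72 and trpl at 8.38 and 8.07. At CT12 and ZT12, trp was at 9.25 and 9.05. The other differences of at least 0.5 named for hours 12 and 16 stayed above 0.5. Early in the day the direction turned, though at hour 4 not by count with quantile normalization again. By sign, 2 of the 8 genes were higher at hour 4 (4 of 8 with quantile normalization again), against 56.2% of all probe sets. At hour 8, 2 of the 8 were higher (also 2 with quantile normalization again), against 56.1%. For trpl, quantile normalization again gave 8.63 at CT4 and 8.95 at ZT4, less than 0.5 apart. At hour 4, 4 genes were lower in constant darkness by at least 0.5 (Arr1 -1.19, trp -1.02, inaD -0.79 and trpl -0.61), against 6.77% of all probe sets, and 0 were higher by that much (4.89%). At hour 8, 3 were lower by at least 0.5 (trpl -0.96, Calx -0.76 and Arr1 -0.52), against 6.07%, and 0 were higher by that much (3.84%). These differences each rest on 1 array per day, and at CT4 and ZT16 the 3' minus 5' signal was large.

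**Figure D3:**
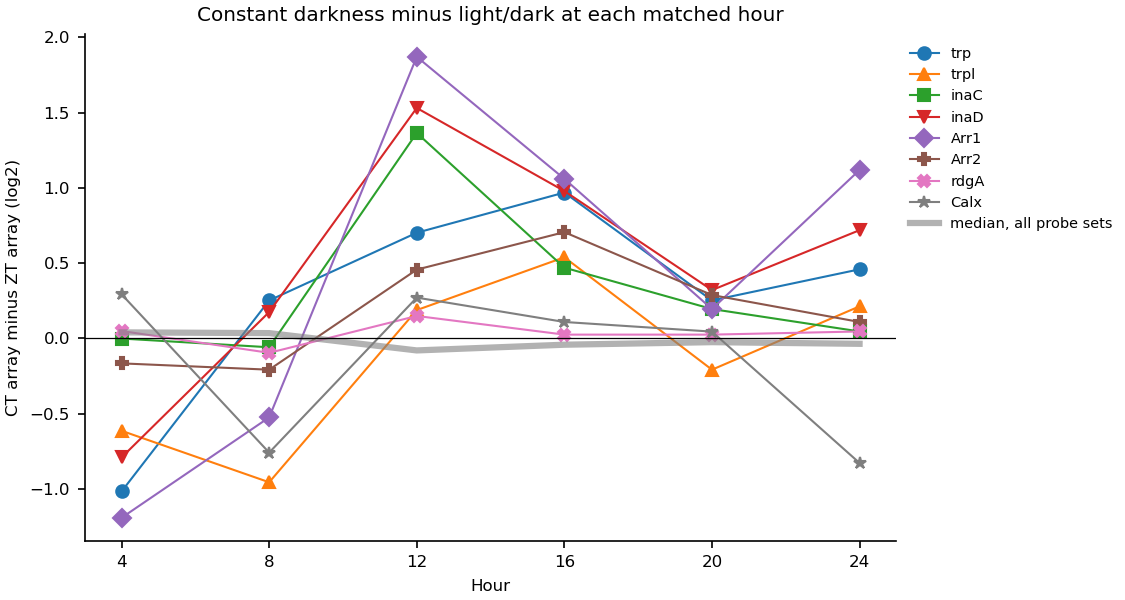
Constant darkness minus light/dark at each matched hour (CT array minus ZT array, log2, vertical axis) for the 8 genes, with the median of all tested probe sets as a grey line. Arr1, inaD and trp run from below -0.7 at hour 4 to above 0.7 at hour 12, and all 8 genes are above 0 at hours 12 and 16.

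At hour 20 no gene differed by 0.5 in either direction (2.31% of all probe sets were higher and 0.272% lower by that much). At hour 24, Arr1 and inaD were higher by 1.12 and 0.72 (8.39% of all probe sets were higher by at least 0.5) and Calx was lower, at -0.83 (5.58% lower). By sign, 7 of the 8 were higher at hour 24 (3 of 8 with quantile normalization again), against 44.4% of all probe sets. ZT24 had the largest 3' minus 5' signal of all arrays (3.32). At hours 12 and 16, 0 genes were lower by that much (3.82% and 2.21% of all probe sets). The median difference over the 8 genes was -0.39 at hour 4, -0.15 at hour 8, 0.58 at hour 12, 0.62 at hour 16, 0.20 at hour 20 and 0.16 at hour 24, while the median over all probe sets stayed between -0.08 and 0.04. The 1397 probe sets of the highest mean level, among them those of trp, trpl, inaD, Arr1 and Arr2, had medians of -0.15, 0.06, 0.21, 0.14, 0.02 and 0.20 at hours 4 to 24. After quantile normalization again, the medians over the 8 genes were -0.15, -0.33, 0.25, 0.40, 0.15 and -0.04 at the same hours.

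Over the whole day, 6 of the 8 genes were higher in constant darkness by sign, against 44.5% of all probe sets, and the median difference was 0.23, against -0.01. This median came to 0.05 with quantile normalization again, where 5 of the 8 were higher (48.6% of all probe sets). Without ZT12 and ZT16 it was -0.04, with trp at -0.08 ± 0.24 and Arr1 at -0.19 ± 0.34. In each of these light/dark arrays 6 of the 8 genes lay below their means. Leaving both out raises the light/dark mean of such genes, so this fall was set by the choice of arrays. At 5 or 6 of the 6 hours, 3 of the 8 genes were higher in constant darkness (trp, inaD and rdgA), against 8.81% of all probe sets. For rdgA this holds only for the brightest probe set, by 0.149 at most. Its other probe sets were higher at 2 and 3 of the 6 hours. The days did not separate for any of the 8 genes (0.193% of all probe sets had days that did not overlap). At an unadjusted p under 0.05 in limma, 0 of the 8 were higher and 0 lower in mean level, against 1.57% and 2.08% of all probe sets.

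**Figure D4:**
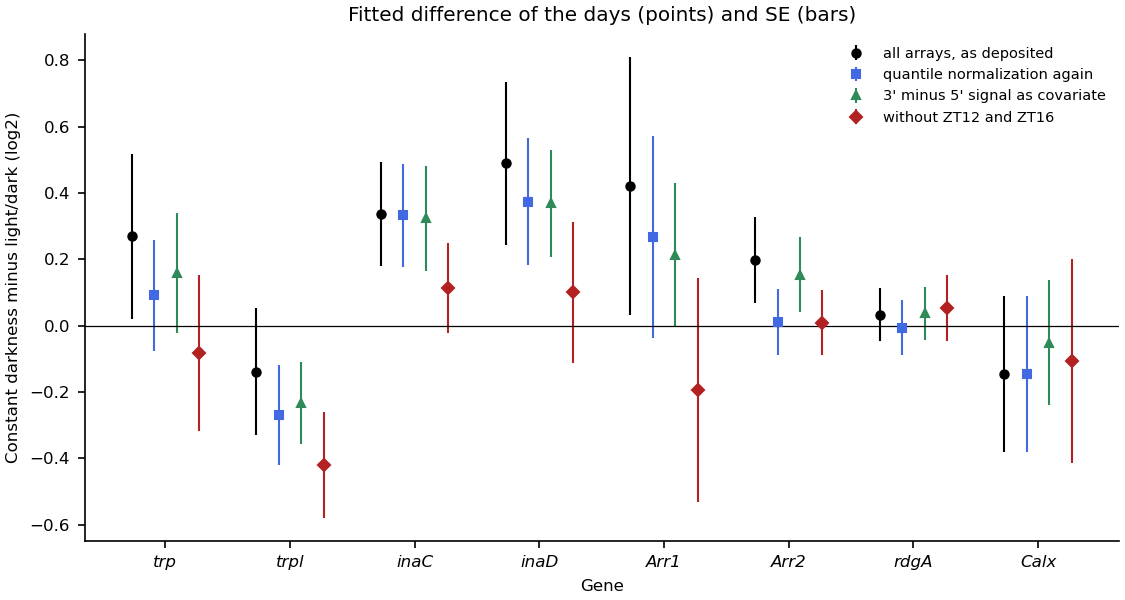
Fitted constant darkness minus light/dark difference (log2, points) with its SE (bars) for the 8 genes, under 4 settings. Without ZT12 and ZT16, inaC and inaD come down to 0.11 ± 0.14 and 0.10 ± 0.21, within 1 SE of 0, trp and Arr1 lie below 0, and trpl, negative in all 4, is at -0.42. ZT12 and ZT16 are light/dark arrays in which most of the 8 genes were low, so a fall without them was set by that choice.

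A cosine with a period of 24 hours common to both days described the members poorly. The largest fitted amplitude (peak minus mean) was that of trpl, 0.37 ± 0.14 (SE, n = 12) with a peak at 7.7 hours, a 1.66-fold change from trough to peak (unadjusted p = 0.0599, adjusted p = 1). Without ZT8 it was 0.23, below the Calx and Arr1 amplitudes of that fit, both 0.30, and without CT4 it was 0.42, below 0.48 for Arr1. Calx followed with 0.33 ± 0.17 and a peak at 21.1 hours, and was at 0.16 without CT8. The arrestins, inaC and inaD had amplitudes of 0.18 to 0.21 with peaks between 1.7 and 3.3 hours, and trp and rdgA each 0.07, against a median of 0.07 over all probe sets. Leaving out single arrays moved several of these. For Arr1 the value was 0.10 without ZT16 and 0.48 without CT4, and for inaD 0.12 without ZT12 and 0.38 without CT4. For Arr2 it was 0.07 without ZT16, for inaC 0.33 without CT12, for trp 0.02 without CT8 and 0.30 without CT4, and for rdgA 0.04 without CT8. At an unadjusted p under 0.05, 0 of the 8 genes were counted, against 1.65% of all probe sets. With the 3' minus 5' signal as a covariate the amplitude was 0.39 ± 0.09 for trpl (adjusted p = 0.79), 0.35 ± 0.12 for inaD and 0.45 ± 0.16 for Arr1.

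Fitted for each day apart, the 5 genes whose amplitudes differed most had the larger one in light/dark. The amplitude was 0.10 in constant darkness and 0.47 in light/dark for inaC, 0.07 and 0.39 for Arr2, 0.20 and 0.59 for inaD, 0.33 and 0.69 for Arr1, and 0.20 and 0.62 for trpl. For trp the amplitudes were alike, 0.33 and 0.39, with peaks at 14.9 hours in constant darkness and 4.3 hours in light/dark. They were also alike for Calx (0.35 in constant darkness and 0.37 in light/dark) and rdgA (0.08 and 0.05). In the light/dark day, the peaks of inaC, inaD, Arr1, Arr2 and trp lay between 2.2 and 4.3 hours and that of trpl at 6.8 hours. The size of the difference of the 2 curves was 0.43 ± 0.14 for Arr2 (unadjusted p = 0.0415, n = 12) and 0.52 ± 0.17 for inaC (unadjusted p = 0.0440, n = 12), so 2 of the 8 genes were counted at an unadjusted p under 0.05, against 2.62% of all probe sets. Both had an adjusted p of 0.99 and failed the correction. Without ZT16 the size for Arr2 was 0.28, and without CT12 that for inaC was 0.34. In the alternative limma fit (eBayes with trend and robust), Arr2 was at 0.43 ± 0.26 (unadjusted p = 0.29) and inaC at 0.52 ± 0.17 (unadjusted p = 0.042). For inaD it was 0.77 ± 0.29 (adjusted p = 0.99) and 0.65 ± 0.12 with the 3' minus 5' signal as a covariate (adjusted p = 0.41), and for Arr1 0.996 ± 0.51 and, without CT4, 0.56.

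The genes most like each member were sought over the 12 arrays, among 5652 genes of at least median level, by Pearson correlation as a description. The points share arrays and their quality. For Arr1 they were Vps20, VhaAC39-1 and the glial glutamine synthetase gene Gs2 (r of 0.97 each), for inaD Tep4, CG2145 and Lst (r of 0.96 each), and for trp CtsB, the ribosomal protein gene RpS7 and CG2852 (r of 0.97, 0.96 and 0.96). For inaC they were f-cup, the eye retinol dehydrogenase gene Pdh and CG7409 (0.89, 0.87 and 0.85), and for Arr2 the proton pump gene Vha16-1, the eye gene rtp and emp (0.91, 0.89 and 0.87). Likeness was weaker for trpl (Cpr11B 0.78, Taz 0.78, CG3356 0.75) and rdgA (lqf 0.82, CG30122 0.80, dtn 0.80). Calx went with Ypel, Amph and msps (0.97, 0.96 and 0.95). No member was among the 3 genes nearest to another member.

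Upstream of the members, the G protein genes moved widely. Gbeta76C, the eye-specific beta subunit, stood at 7.51, 9.49, 9.68, 9.37, 9.57 and 9.50 at CT4 to CT24, against 9.37, 9.04, 8.13, 6.90, 9.26 and 7.73 at ZT4 to ZT24. Its low arrays, ZT16, CT4, ZT24 and ZT12, were those of Arr1. They were not low for these genes alone. Of 10 measured muscle markers, 7, 8, 6 and 9 lay below their means in these arrays. ZT16, CT4 and ZT24 also had the largest 3' minus 5' signals (2.58, 2.88 and 3.32). The part of either in the course of Gbeta76C was not tested. The constant darkness minus light/dark difference was 0.78 ± 0.50 for Gbeta76C and -0.12 ± 0.18 for Galphaq, which encodes the alpha subunit and gave a weak signal, at a mean of 3.48. Of 4 measured genes of this group (5 listed), which also holds the gamma subunit gene Ggamma30A and the receptor kinase gene Gprk2, 3 were higher in constant darkness (median 0.26), and 0 passed any of the 3 tests. Of the 7 rhodopsin genes 1 was measured, Rh7, at 4.59 ± 0.16 in constant darkness and 4.63 ± 0.09 in light/dark (SD, n = 6 each).

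Among 14 measured genes of 19 listed for other cascade and shut-off steps, 7 were higher and 7 lower in constant darkness (median -0.002), and 0 passed any of the 3 tests over all probe sets. Retinophilin, encoded by rtp, binds NINAC, and its transcript stood at 9.42 ± 0.14 in constant darkness and 8.94 ± 0.42 in light/dark (SD, n = 6 each). The rtp difference was 0.48 ± 0.15 (unadjusted p = 0.0094, n = 12; adjusted p = 0.93), with ZT16 lowest, and the curves of its days differed by 0.59 (unadjusted p = 0.0076, n = 12; adjusted p = 0.99). The gene stops, whose product stabilizes the phospholipase NORPA, differed by 0.15 ± 0.06 and Itpr, the IP3 receptor gene, by -0.53 ± 0.22, at a mean of 3.59. The rhodopsin phosphatase gene rdgC had a day difference of 0.21 ± 0.35, and the curves of its days differed by 1.24 (unadjusted p = 0.0254, n = 12; adjusted p = 0.99), with its lowest array at CT8.

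**Figure D5:**
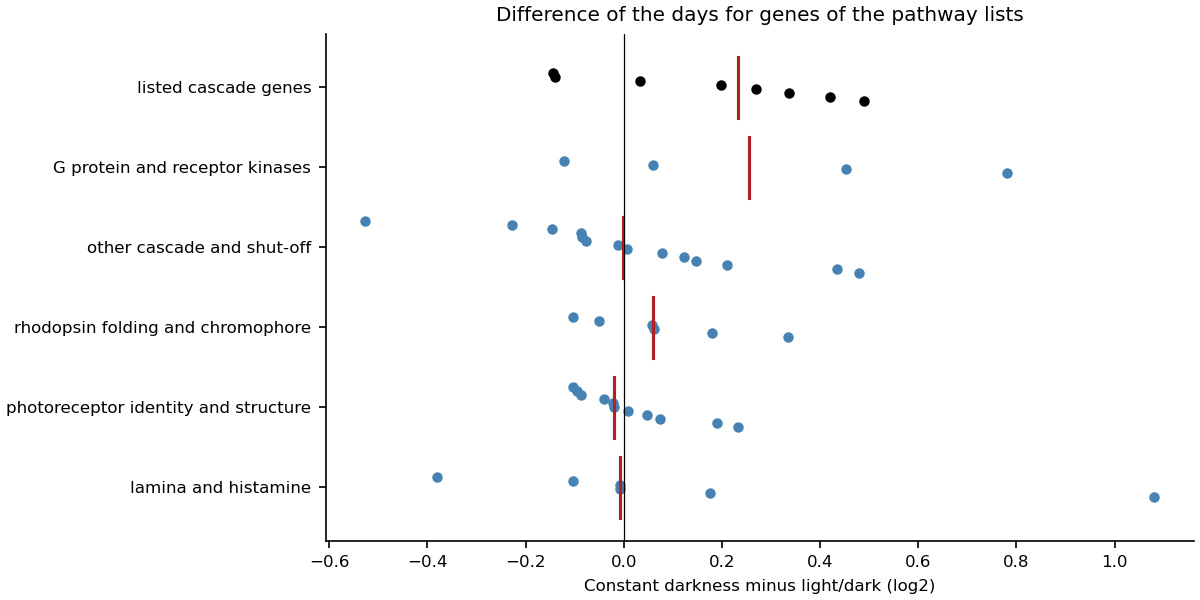
Constant darkness minus light/dark difference (log2, horizontal axis) of each measured gene, by list; black points are the 8 listed cascade genes, blue points the genes of the other lists, and red lines the medians. The medians are 0.23 for the cascade genes, 0.26 for G protein and kinase genes and between -0.02 and 0.06 for the other 4 lists drawn.

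Rhodopsin folding and chromophore genes (6 of 9 measured) had 4 higher and 2 lower, with a median of 0.06. They ranged from -0.10 ± 0.09 for pinta, which encodes a retinoid-binding protein, to 0.33 ± 0.28 for ninaB, which encodes the carotenoid-cleaving enzyme. Genes of photoreceptor identity and structure (11 of 11 measured) had 5 higher and 6 lower, with a median of -0.02. The lowest was so, an eye transcription factor gene, at -0.10 ± 0.14, and the highest Pph13, which encodes a homeodomain factor that activates phototransduction genes, at 0.23 ± 0.09 and higher at 6 of 6 hours (unadjusted p = 0.0273, n = 12; adjusted p = 0.93). For retinin, the corneal lens gene in this list, the difference was 0.19 ± 0.08, higher at 5 of 6 hours (unadjusted p = 0.0466, n = 12; adjusted p = 0.93). No gene of these lists passed any of the 3 tests over all probe sets.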

How the data were processed

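Per the submitters' processing notes, the authors turned the scans into 1 deposited log2 value for each probe set on each array with RMA (background correction, normalization between arrays, summary of probes); no version is given in the sources used here. The log2 scale is inferred from the range of 1.72 to 13.5. The 44 control probe sets served for the 3' minus 5' signal and 13966 probe sets were tested. Probe sets with 1 gene in the platform annotation (12443) were named, with symbols updated through gene IDs in the RefSeq table of Release 6 plus ISO1 MT. The probe set of highest mean represented a gene.

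limma 3.58.1 in R 4.3.3 was fitted to all 12 arrays: day, cosine and sine (24 hours) for mean level and rhythm, and a curve for each day for the difference of rhythm, 2-sided, adjusted by Benjamini-Hochberg over the 13966 probe sets, at 0.05. The code was tested on simulated data. Where nothing says that time points came from separate cultures of flies, p-values measure only the scatter of these arrays. The number of arrays limits the precision (median SE of a day difference 0.09).

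Genes named were all members, and per pathway list those with an unadjusted p under 0.05 and those with the extreme day differences. Promoter sequences were not used here. Members, lists and tests were chosen with earlier results of these data known. Alternatives were quantile normalization, 16 added on the linear scale, a filter at the median level, arrays left out, the mean of a gene's probe sets, eBayes with trend, and other terms for the hour. The fits without ZT12 and ZT16 and with the 3' minus 5' signal were added after seeing the data. ZT12 and ZT16 are light/dark arrays in which most members were low. Leaving them out lowers the day difference of those genes by construction and does not test it.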

Additional observations from a re-analysis of the deposited data

Results flagged for a closer look

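Within each day, the lowest or highest array stood apart from the other 5 in 2 of 20 groups (10 probe sets on 2 days), where chance alone marks about 1 in 20 groups. The channel gene trp was at 8.32 at CT4, with the next lowest array of constant darkness at 9.34. The exchanger gene Calx was at 4.42 (4.425) at CT8, with the next lowest at 5.46. CT4 had a 3' minus 5' control signal of 2.88 and low muscle markers, and CT8 had high gut and low neuron markers. Their part in these values was not tested.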

How the results depend on the processing

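In every alternative run, 0 of the 8 genes passed the adjusted threshold for mean level, rhythm or difference of rhythm. The number of genes higher in constant darkness was 6 with all arrays, 5 with quantile normalization again, 4 without ZT12 and ZT16, 7 without ZT16, ZT24, CT4 and CT8, and 5 to 7 with 1 array left out. The median difference over the 8 genes was 0.23 with all arrays, 0.10 (without ZT16) to 0.33 (without CT4) with 1 array left out, 0.16 with the 3' minus 5' signal as a covariate, 0.29 without ZT16, ZT24, CT4 and CT8, 0.05 with quantile normalization again, and turned to -0.0367 without ZT12 and ZT16. With the 3' minus 5' signal as a covariate, Arr1 was at 0.21 ± 0.22 and inaD at 0.37 ± 0.16 (limma adjusted p = 0.99 and 0.98). Signs turned for trp (-0.0822) and Arr1 (-0.1949) without ZT12 and ZT16, for rdgA with quantile normalization again (-0.0067) and for Calx without ZT16, ZT24, CT4 and CT8 (0.2644). The falls without ZT12 and ZT16 were set by leaving out light/dark arrays in which most members were low. With 1 array left out, signs turned only for rdgA (range -0.0142 to 0.0927, negative without CT12) and Calx (-0.2759 to 0.0393, positive without CT8 or ZT24). The causes were not tested. Taking the hour as a block, which sets each CT array against the ZT array of its hour, kept all 8 differences and gave adjusted p of 0.95 to 0.96. With 12 arrays and 1 per time point, differences of about 0.5 in genes that vary as Arr1 and inaD do are within the scatter.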

Other observations

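Of 6 measured genes of histamine signalling between photoreceptors and lamina (7 listed), 2 were higher and 4 lower in constant darkness (median -0.01), and 0 passed any of the 3 tests over all probe sets. The gene t (tan), whose enzyme frees histamine from carcinine, stood at 6.61, 7.83, 8.35, 7.70, 8.12 and 8.12 at CT4 to CT24, against 7.58, 6.61, 5.68, 5.77, 7.95 and 6.66 at ZT4 to ZT24. Its lowest arrays were ZT12 and ZT16, those in which inaC, inaD, Arr1 and Arr2 were low. The difference of 1.08 ± 0.41 was the largest positive one of all 13966 probe sets (unadjusted p = 0.0219, n = 12; adjusted p = 0.93), with t higher in constant darkness at 5 of 6 hours. The carcinine transporter gene CarT differed by -0.38 ± 0.12 and was lower at 6 of 6 hours, at a mean of 2.96, a weak signal (unadjusted p = 0.0069, n = 12; adjusted p = 0.93). The gene e (ebony), whose enzyme makes carcinine in glia, had a day difference of -0.10 ± 0.16, and the curves of its days differed by 0.62 (unadjusted p = 0.0066, n = 12; adjusted p = 0.99).

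The retinol dehydrogenase gene Pdh, which acts in chromophore recycling and was among the genes most like inaC, had a fitted amplitude of 0.43 ± 0.10 with a peak at 3.1 hours (unadjusted p = 0.0055, n = 12; adjusted p = 1). It stood at 9.54, 9.34, 9.59, 8.92, 9.38 and 9.54 at CT4 to CT24, against 9.75, 9.51, 8.54, 8.67, 9.04 and 9.72 at ZT4 to ZT24, with ZT12 and ZT16 lowest. The photoreceptor cell-surface protein gene chp had its 3 lowest arrays at CT4 (8.42), ZT16 (8.40) and ZT12 (8.12).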
